A study of Mus musculus with 23 samples.

Results

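Signals for olfactory receptor genes were examined in brains of adult male C57BL/6J mice, and the results concern the 163 receptor probes whose signal stood above background on the expression array. The array carried 1186 probes for 1093 genes named Olfr followed by a number, out of 39429 probes in all. A probe was chosen when the scanner software flagged it as well above the local background on all 4 arrays of at least 1 diet group, so that the members were selected on the same measurements that are described here. The 163 chosen probes belong to 160 genes. They are single spots on the array except for 3 probes of 10 spots each, for which at least 50% of the spots had to carry the flag.

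The mice came from in vitro fertilized C57BL/6J eggs carried by ICR recipient mothers on 1 of 3 diets, with 4 mice and 4 arrays per diet. The control diet (CD) held 20% casein and 0.02% folic acid, the protein-restricted diet (PR) 5% casein and 0.02% folic acid, and the supplemented diet (FA) 5% casein and 0.1% folic acid. All 3 groups of progenies were delivered by cesarean section, raised by ICR foster mothers, fed the CD after weaning, tested for behavior, and killed at 19 weeks of age. Labels give no litters, and they do not say that a replicate number ties mice of different diets to each other. Whole brain is a mixture, and in such samples fewer cells of a type and less RNA per cell cannot be told apart.

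Olfactory receptors are G protein-coupled receptors and form the largest gene family of the mouse. In the nose, each sensory neuron transcribes a single receptor gene from a single allele, and the receptor signals through the G protein subunit encoded by Gnal, the adenylyl cyclase encoded by Adcy3, and the cyclic nucleotide-gated channel that contains Cnga2. Class I receptors, which resemble those of fish, lie together in a cluster on chromosome 7, and class II receptors lie in clusters on most other chromosomes. Receptor transcripts are also known from tissues outside the nose, usually at low levels. The axons of the sensory neurons end in the olfactory bulb, which is part of the brain, while their cell bodies stay in the nasal epithelium.

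Each value rests on the hybridization of labeled brain RNA to a probe of 60 bases. For 3 receptor genes, a pair of probes overlapped inside a gene model of coding length, and these pairs are shown with the shared bases in capitals. The probes of a pair differed in detection and level for Olfr373 and Olfr285, and they lay close together for Olfr95. The Olfr373 probes lie at chr8:74624499-74624558 and chr8:74624539-74624598 on the plus strand and share 20 bases. The Olfr95 probes lie at chr17:37347891-37347950 and chr17:37347858-37347917 on the minus strand and share 27 bases. The Olfr285 probes lie at chr15:98143324-98143383 and chr15:98143292-98143351 on the minus strand and share 28 bases. Positions are those of mm9, the build in the array files, and the sequences are those of the array files, 5′ to 3′.
Olfr373, well above background on 12 of 12 arrays: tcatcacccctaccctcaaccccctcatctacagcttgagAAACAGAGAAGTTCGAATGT
Olfr373, on 2 of 12 arrays: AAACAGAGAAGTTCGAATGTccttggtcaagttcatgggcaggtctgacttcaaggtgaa
Olfr95, on 11 of 12 arrays: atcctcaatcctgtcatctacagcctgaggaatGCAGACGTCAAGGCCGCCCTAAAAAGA
Olfr95, on 12 of 12 arrays: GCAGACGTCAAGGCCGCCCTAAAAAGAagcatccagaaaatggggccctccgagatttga
Olfr285, on 8 of 12 arrays: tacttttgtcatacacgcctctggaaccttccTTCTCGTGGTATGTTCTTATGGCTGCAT
Olfr285, on 0 of 12 arrays: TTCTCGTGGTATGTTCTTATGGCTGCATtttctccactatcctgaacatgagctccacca

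A further pair of probes, with no part in capitals, belongs to receptors described below and differs in base composition. The Olfr1252 probe, at chr2:89561587-89561646 on the minus strand, holds 36.7% G and C, and the Olfr549 probe, at chr7:109703382-109703441 on the plus strand, holds 51.7%. Both genes have a model of coding length in GRCm38, and both probes were well above background on all 12 arrays.
Olfr1252: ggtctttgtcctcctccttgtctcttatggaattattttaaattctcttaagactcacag
Olfr549: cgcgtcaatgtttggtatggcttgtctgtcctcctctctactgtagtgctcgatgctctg

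Of the 163 chosen probes, 49 were well above background on all 12 arrays, 73 on every PR and FA array but not every CD array, 34 through PR alone, and 7 through FA alone. No receptor probe was chosen through the CD group without the others: all 49 that were flagged on the 4 CD arrays were flagged on the PR and FA arrays as well. The same held for nearly all probes of the array. Of the 23782 probes flagged on the 4 CD arrays, 23753 were flagged on all 12, while 27256 were flagged on the 4 PR arrays and 26772 on the 4 FA arrays. Among the 114 probes that were not flagged in every group, 69 had the flag on 0 CD arrays. Of the 1023 receptor probes that were not chosen, 677 had it on 0 of the 12 arrays. The flag itself chose these members, so that the counts describe the choice and were not tested.

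The 4 CD arrays had 113, 82, 75, and 82 flagged receptor probes, the PR arrays 244, 204, 228, and 322, and the FA arrays 211, 163, 201, and 211. The number was highest on the array of PR replicate 4, where 27.2% of the receptor probes were flagged, against 17.2% to 20.6% on the other PR arrays. The probes for all other genes moved the same way, with 63.7% to 67.0% flagged on the CD arrays, 73.6% to 78.7% on the PR arrays, and 71.6% to 74.6% on the FA arrays. The scanner files give each diet a slide and a scan of its own, and the signal left on negative control spots after background subtraction was 28.1 to 34.8 units for CD, 42.7 to 51.2 for PR, and 39.3 to 47.6 for FA. Slide and diet therefore cannot be told apart, in these counts or in any difference between diets given below. After normalization, the dimmest signal that still carried the flag was 4.75 to 5.28 (log2) on the CD arrays, 3.23 to 3.83 on the PR arrays, and 3.70 to 4.01 on the FA arrays, so that a receptor at a log2 level of 4.5 could be flagged on a PR or FA array and not on a CD array.

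The share of receptor probes that were chosen rose with the content of G and C in the probe. It was 3.5% (11 of 311) at up to 35% GC, 11.3% (41 of 362) above 35% and up to 40%, 18.4% (82 of 446) above 40% and up to 45%, and 43.3% (29 of 67) above 45%. Among all other probes, the share that met the same rule was 69.2%, 68.4%, 70.1%, and 80.0% in these classes. The median GC content was 45% for the 49 receptor probes flagged on all arrays, 43.3% for the other 114 members, and 38.3% for the receptor probes that were not chosen. The chosen probes also began closer to the start of the transcript, at a median base of 627 and 710.5 in the first and the second of these sets and 861 in the third. The part of probe composition in the detection was not tested.

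The choice was applied to each probe by itself, so that it also fixed which of the probes of a gene were members. Of the 160 receptor genes, 17 had 2 probes, and both probes were members for Olfr95, Olfr288, and Olfr456. In the other 14 genes the second probe was flagged on 0 arrays for 11 genes and on at most 2 of the 12 arrays for any of them. The member had the higher GC content in 10 of these genes, the same in 3, and the lower in 1. Over all receptor genes with 2 probes, 17 of 93 had at least 1 detected probe, and both were detected in 17.6% of those 17. Over all other genes with 2 probes, at least 1 was detected in 4604 of 5200, and both in 80.7% of those. These shares are a description of which probes gave a signal, and other transcripts that the probes may bind were not examined.

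The detected probe of Olfr373 had mean log2 levels of 9.79 ± 0.15 in CD, 9.42 ± 0.11 in PR, and 9.58 ± 0.19 in FA (SD, n = 4 each), and the probe that overlaps it by 20 bases had 2.48 ± 0.06, 3.41 ± 2.11, and 3.15 ± 1.45. In Olfr629 a second probe, at chr7:110888715-110888774, stood at 2.53 ± 0.04, 2.82 ± 0.40, and 2.55 ± 0.18, where the member stood at 8.66 ± 0.24, 7.77 ± 0.12, and 7.58 ± 0.13. These partners were flagged on 2 and 0 arrays, so that their means do not measure a level above background.

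The pairs of probes that were both detected differed among themselves. The 2 probes of Olfr95 lay close together, with means of 5.58, 5.19, and 5.40 for the first printed sequence and 5.79, 4.95, and 5.38 for the second (CD, PR, and FA). Those of Olfr456, which overlap by 20 bases at chr6:42436847-42436906 and chr6:42436887-42436946, had 6.54, 6.24, and 5.91 against 4.70, 5.16, and 4.93. The first Olfr456 probe was thus lower in PR and FA than in CD and the second higher, with the second flagged on 0 CD arrays. The 2 probes of Olfr288 had 5.35, 6.21, and 5.94 against 5.69, 5.58, and 5.97, which is a rise of 0.87 in PR over CD by the first probe and a fall of 0.12 by the second. Olfr288 overlaps another gene in the GRCm38 annotation.

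The chosen probes were spread over the receptor clusters. With clusters taken as runs of receptor probes less than 1 Mb apart, the class I cluster on chromosome 7 (chr7:109625402-112517830, Olfr543 to Olfr692) held 20 members among 139 probes, or 14.4%. The largest class II cluster, at chr2:85171954-90165272, held 27 members among 235 probes (11.5%), and the share over all receptor probes was 13.7%. Among clusters of at least 8 probes, the highest shares were 50% (4 of 8) at chr7:6393483-6523390, 38.1% (8 of 21) at chr6:41721632-43186247, and 37.5% (3 of 8) at chr1:94376278-94517364. All 3 members of the cluster on chromosome 1, which include Olfr1415, were flagged on all 12 arrays. On the X chromosome 0 of 6 receptor probes were members. Shares by cluster were not tested, and neighbouring receptors resemble each other in sequence. Runs of 25 or more bases shared with a probe for another receptor were found in 5 members (Olfr494, Olfr530, Olfr441, Olfr438, and Olfr75-ps1), the longest being 43 bases between Olfr494 and Olfr485. Annotation in GRCm38 placed 7 member probes in genes that overlap another gene, among them Olfr1509 with the T cell receptor alpha locus and Olfr524 with Cd163l1.

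Other chemoreceptor families were detected at shares of the same order by the same rule. The flag was met by 20 of 149 probes for vomeronasal type 1 receptors (13.4%), 22 of 125 for vomeronasal type 2 receptors (17.6%), 7 of 40 for taste receptors (17.5%), and 1 of 15 for trace amine-associated receptors (6.7%, Taar4). For the olfactory receptors this share was 13.7%, and over all probes it was 69.7%. Formyl peptide receptors reached 2 of 6 probes and the membrane-spanning 4A family 7 of 24. As among the olfactory receptors, more vomeronasal type 1 probes were detected in PR (20) and FA (19) than in CD (8). For vomeronasal type 2 receptors these numbers were 20, 19, and 8, and for taste receptors 7, 7, and 3. Over all probes the order was the same, with 27256 in PR, 26772 in FA, and 23782 in CD. The direction is therefore not particular to chemoreceptors.

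Transcripts for the signalling chain behind the receptors were present. Of 34 probes for 26 genes of olfactory signalling, 33 were detected, and Rtp1, which carries receptors to the cell surface, was the gene without a detected probe. The most intense signals of the list came from Gng13, Gnal, Reep1, Pde4a, and Gnb1, with mean log2 levels of 14.8, 13.8, 13.6, 13.5, and 13.5 for their highest probes. All of these genes are also used by brain neurons outside the olfactory system. Relative to CD, 6 of the 34 probes were lower and 4 higher in PR, and 8 were lower and 6 higher in FA, at an adjusted p under 0.05 from limma, and 0 differed between FA and PR in either direction. The median difference of the list was -0.04 in both PR and FA, and over all probes 16.6% were lower and 13.4% higher in PR and 18.0% and 16.4% in FA, so that these counts stood near the background. Adcy3 was among the probes that rose, from 8.24 ± 0.05 in CD to 8.64 ± 0.13 in PR and 8.71 ± 0.06 in FA. Among those that fell in both groups, Cnga2 went from 8.16 in CD to 7.72 in PR and 7.47 in FA. Ebf2, another of these, went from 8.97 to 8.69 and 8.64.

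Markers were examined for the tissue that the brains could hold beside the receptors. All 20 probes for 12 brain genes, such as Snap25 and Syt1, were detected on all 12 arrays, and so were all 18 probes for 14 olfactory bulb genes. Of 23 probes for 18 genes of the olfactory epithelium, 15 were detected, and Cyp2g1, Gucy2d, Lcn14, Rtp1, Sult1c1, and Umod had no detected probe. Gap43, Ermn, Omp, and Cbr2 gave the most intense signals of this list, of which Gap43 and Ermn are widely used in the brain. The summed signal of the epithelium list was 15.1 to 15.4 (log2) in CD, 15.4 to 15.6 in PR, and 15.2 to 15.4 in FA. Gap43 gave the largest part of this sum, with means of 14.37 in CD, 14.77 in PR, and 14.62 in FA. The sum therefore does not measure epithelial tissue. That of the bulb list was 16.0 to 16.1 in CD, 15.9 to 16.0 in PR, and 15.8 to 16.1 in FA. Its largest part came from Pcp4l1, with means of 14.58, 14.60, and 14.70. Of the 18 bulb probes, 6 were lower and 1 higher in PR than in CD, and 6 were lower and 0 higher in FA, among them both probes of Eomes, which marks mitral and tufted cells. The median difference of the bulb list was -0.23 in PR and -0.26 in FA. Of the 23 epithelium probes, 2 were lower and 4 higher in PR and 4 lower and 3 higher in FA, with medians of 0.02 and -0.12, and of the 20 brain probes 5 and 5 in PR and 5 and 4 in FA. Over all probes, the same threshold called 16.6% lower and 13.4% higher in PR, and 18.0% and 16.4% in FA. The part of bulb or nerve tissue in the receptor signals was not tested.

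Omp, which marks mature olfactory sensory neurons and their axons, was the most variable of the defining markers. Its log2 levels were 11.51, 11.61, 11.39, and 11.38 on the CD arrays, 11.83, 10.58, 10.91, and 10.97 on the PR arrays, and 10.06, 11.68, 11.78, and 9.31 on the FA arrays. The groups overlapped, and FA replicates 1 and 4 were the lowest. On these FA arrays the median log2 level of the 49 receptor probes was 6.89 and 6.78, and it was 6.59 and 6.73 on FA replicates 2 and 3. Cnga2 had means of 8.16 ± 0.22 in CD, 7.72 ± 0.16 in PR, and 7.47 ± 0.14 in FA, and Gng8 9.08 ± 0.06, 8.95 ± 0.13, and 8.91 ± 0.06.

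The brightest of the 49 receptor probes flagged on all arrays were those of Olfr544, Olfr173, Olfr373, Olfr1466, Olfr1368, Olfr1229, Olfr629, Olfr1252, Olfr319, and Olfr522. Brightness depends on the probe, and it does not rank the amounts of these transcripts. The 49 probes had mean log2 levels of 5.24 to 12.77 in CD, 4.95 to 12.34 in PR, and 4.71 to 12.31 in FA. Their median SD between the 4 mice of a group was 0.30 in CD, 0.13 in PR, and 0.17 in FA. The array of CD replicate 4 stood above the other CD arrays for many of them, with a median log2 level over the 49 probes of 6.97 against 6.58 to 6.70.

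Olfr544 (probe at chr7:109632628-109632687), a class I receptor known to respond to azelaic acid and to be transcribed outside the nose, gave the brightest signal of all receptor probes. Its log2 levels were 12.68, 13.32, 12.73, and 12.36 in CD, 12.18, 12.38, 12.18, and 11.81 in PR, and 12.11, 12.48, 12.17, and 12.18 in FA. The PR and FA values both overlapped with those of CD, through CD replicate 4. The mean was lower in PR than in CD by 0.64 (SE 0.19, adjusted p = 0.029) and lower in FA by 0.54 (adjusted p = 0.0503, not past the threshold). The FA difference passed it in 8 of the 16 alternatives (adjusted p from 0.0089 to 0.16), with each of the other scalings among them. The PR call was lost when CD replicate 2, CD replicate 3, or PR replicate 1, 3, or 4 was left out. It was also lost by the Tukey test and with a fit of the 2 compared diets alone.

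Olfr173 (chr16:58796971-58797030), a class II receptor, was higher in both groups on the restricted diet. The CD arrays gave 12.01, 12.03, 12.03, and 11.41, the PR arrays 12.52, 12.42, 12.35, and 12.07, and the FA arrays 12.38, 12.44, 12.11, and 12.29. All PR and FA values lay above all CD values, and CD replicate 4 lay furthest below. The differences were 0.47 in PR (SE 0.15, adjusted p = 0.039) and 0.44 in FA (SE 0.15, adjusted p = 0.047), and neither call was stable. The PR call was lost without CD replicate 4 or PR replicate 1, 2, or 3, and the FA call without any 1 of the CD arrays or FA replicate 1, 2, or 4. Both were also lost with the normexp correction, with a fit of the 2 compared diets alone, and by the Tukey test. The FA call was lost with scaling to the 75th percentile as well.

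Olfr373 fell in PR. Its detected probe gave 9.96, 9.79, 9.59, and 9.84 on the CD arrays, 9.56, 9.31, 9.46, and 9.33 on the PR arrays, and 9.87, 9.47, 9.53, and 9.47 on the FA arrays. The PR values all lay below the CD values, by a mean of 0.38 (SE 0.11, adjusted p = 0.024), and the FA mean lay below CD by 0.21 (adjusted p = 0.16) with overlapping values. The PR call was lost by the Tukey test and without CD replicate 1, PR replicate 2, or PR replicate 4. The FA difference passed the threshold without FA replicate 1 (-0.30, adjusted p = 0.031, against at most 0.395 over all alternatives).

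Olfr1466 (chr19:13416809-13416868) had the widest spread among the 10 brightest probes. Its log2 levels were 10.04, 10.12, 9.84, and 11.14 in CD, 8.24, 7.92, 7.87, and 10.80 in PR, and 8.42, 8.43, 8.03, and 10.54 in FA. The array of replicate 4 was the highest in each group, and the other PR and FA arrays lay below all CD arrays. The differences of -1.58 in PR and -1.43 in FA were the largest of the 49 probes and were not past the threshold (SE 0.72, adjusted p = 0.13 and 0.15). Without PR replicate 4 the PR difference was -2.27 (adjusted p = 0.018), and without FA replicate 4 the FA difference was -1.99 (adjusted p = 0.048), while the adjusted p was between 0.0064 and 0.41 over all settings and both comparisons. Of the 39429 probes, 2 were higher by more than 1 (log2) on replicate 4 than on the other 3 arrays in each of the 3 groups, Olfr1466 and 1700081H04Rik, and 2, 2, and 0 probes did so for replicates 1, 2, and 3. The replicate number is also the position of the array on its slide, and the part of position in these values was not tested.

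Relative to the CD group, 4 of the 49 receptor probes were lower in PR (8.2%) and 9 were higher (18.4%) at an adjusted p under 0.05 from limma. Among all probes flagged on the 12 arrays, 14.3% were lower and 16.5% higher, and among all 39429 probes 16.6% were lower and 13.4% higher. In FA, 8 of the 49 probes were lower (16.3%) and 8 higher (16.3%), against 17.1% lower and 19.9% higher among probes flagged on all arrays and 18.0% lower and 16.4% higher among all probes. These shares stood near those of other probes, so that the counts say nothing particular about receptors. The median difference of the 49 probes was 0.06 in PR and -0.12 in FA, and that of all probes was -0.02 and -0.01. Both comparisons use the same CD arrays.

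The split of the background depended on the treatment of dim probes. With the normexp correction 3718 probes were lower and 4684 higher in PR, and with dim probes removed 3775 and 4708, in place of 6532 and 5288. In FA these numbers were 4849 and 6359, 4545 and 5870, and 7109 and 6449.

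The clearest fall among the receptors was that of Olfr629 (chr7:110888856-110888915), a class I receptor. The CD arrays gave log2 levels of 8.82, 8.83, 8.31, and 8.69, the PR arrays 7.92, 7.63, 7.79, and 7.73, and the FA arrays 7.75, 7.59, 7.50, and 7.46. All PR and FA values lay below all CD values. The fall was 0.90 in PR (SE 0.12, adjusted p = 0.00037) and 1.09 in FA (SE 0.12, adjusted p = 0.00012), or 1.86-fold and 2.13-fold. It was called under all 16 alternatives in both comparisons, but the second probe of this gene gave no signal above background on any array.

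Olfr1415 (chr1:94387395-94387454) fell in FA and was the 1 receptor probe of the 49 that differed between FA and PR. It gave 6.85, 6.72, 7.30, and 6.71 in CD, 6.89, 6.56, 6.67, and 6.64 in PR, and 5.69, 6.21, 5.90, and 5.84 in FA. The FA values lay below all others, and those of CD and PR overlapped. The fall was 0.99 against CD (SE 0.15, adjusted p = 0.00066) and 0.78 against PR (SE 0.15, adjusted p = 0.0499). Leaving out any 1 of the PR or FA arrays ended the call against PR, while the call against CD held under all 16 alternatives. The call against PR held under 3 of the 16. It was also lost with quantile normalization, normexp, a block on replicate number, a fit of the 2 compared diets alone, and the Tukey test.

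Olfr1368 (chr13:21234026-21234085) was lower in FA, with 9.15, 9.37, 9.29, and 9.95 on the CD arrays, 9.26, 9.10, 9.15, and 9.09 on the PR arrays, and 8.66, 8.65, 8.46, and 8.90 on the FA arrays. All FA values lay below all CD and PR values. The fall against CD was 0.77 (SE 0.16, adjusted p = 0.0035), and in PR the difference was -0.29 (adjusted p = 0.185).

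Olfr95, by the second of its printed probes, fell in PR. It gave 5.01, 6.05, 6.10, and 5.99 in CD, 4.85, 4.85, 5.10, and 5.02 in PR, and 5.16, 5.32, 5.37, and 5.66 in FA. CD replicate 1 lay among the PR values, and the others lay above them. The fall was 0.84 (SE 0.22, adjusted p = 0.017), and the first printed probe, which was not flagged on all CD arrays, differed by -0.39 in the same comparison. The call was lost with scaling to the 75th percentile and by the Tukey test (adjusted p of up to 0.066), and the difference ran from -1.10 to -0.27 over the 16 alternatives.

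The rises were smaller. Olfr74 (chr2:87814718-87814777), a class II receptor known to respond to ethyl vanillin, gave 5.65, 5.50, 5.47, and 6.07 in CD, 6.24, 6.57, 6.35, and 6.31 in PR, and 6.33, 6.08, 6.23, and 6.20 in FA. All PR and FA values lay above all CD values, though narrowly for CD replicate 4 in FA. The rise was 0.69 in PR (SE 0.13, adjusted p = 0.0027) and 0.54 in FA (SE 0.13, adjusted p = 0.0086).

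Olfr1251 (chr2:89507370-89507429) and Olfr1252 (chr2:89561587-89561646) are neighbours in the large cluster on chromosome 2, and both rose. Olfr1251 gave 5.18, 5.15, 5.41, and 5.22 in CD, 5.97, 5.70, 5.88, and 5.98 in PR, and 6.44, 5.53, 5.72, and 5.88 in FA. Its values did not overlap between CD and either group, with rises of 0.65 in PR (SE 0.17, adjusted p = 0.014) and 0.66 in FA (SE 0.17, adjusted p = 0.011). Olfr1252 gave 7.45, 7.39, 7.47, and 7.96 in CD, 7.99, 7.92, 8.29, and 8.38 in PR, and 8.18, 7.86, 7.99, and 8.38 in FA. CD replicate 4 overlapped with both groups, and the rises were 0.58 (SE 0.16, adjusted p = 0.020) and 0.53 (SE 0.16, adjusted p = 0.025). These calls were lost without CD replicate 1, 2, or 3, in PR also without PR replicate 3 or 4, and in FA also without FA replicate 1 or 4. Both were also lost by the Tukey test.

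Olfr521 (chr7:106915694-106915753) and Olfr549, whose probe is printed above, had 2 of the 3 largest rises in FA. Olfr521 gave 5.72, 6.13, 5.93, and 6.51 in CD, 6.22, 6.19, 6.31, and 6.12 in PR, and 6.89, 6.74, 6.78, and 6.78 in FA. The FA values lay above all others, by 0.73 against CD (SE 0.14, adjusted p = 0.0025) and by 0.59 against PR (adjusted p = 0.088). Olfr549, a class I receptor, gave 6.997, 7.02, 7.01, and 7.62 in CD, 7.65, 7.64, 7.57, and 7.67 in PR, and 8.05, 7.63, 7.71, and 7.68 in FA. Its rise was 0.61 in FA (SE 0.14, adjusted p = 0.0073) without overlap, and 0.47 in PR (SE 0.14, adjusted p = 0.029), where CD replicate 4 overlapped.

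Among the other bright receptors, Olfr1229, Olfr319, and Olfr522 differed by -0.14, 0.15, and 0.08 in PR and by -0.27, -0.21, and -0.12 in FA, and none of these passed the threshold. Without CD replicate 4, the PR differences of Olfr319 and Olfr522 were 0.25 (adjusted p = 0.043) and 0.22 (adjusted p = 0.020), with adjusted p of up to 0.71 and 0.99 over all alternatives. The remaining calls in PR were rises of Olfr187, Olfr1143, Olfr1008, and Olfr1115 by 0.21 to 0.48. In FA they were falls of Olfr456, Olfr576, Olfr1347, Olfr1131, and Olfr1443 by 0.63 to 0.18 and rises of Olfr187 and Olfr96 by 0.38 and 0.42. The fall of Olfr456 was that of its first probe, whose FA and CD values overlapped. Its second probe, flagged on 0 CD arrays, was higher in FA by 0.22.

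Between FA and PR, 1 of the 49 probes was lower and 0 higher at an adjusted p under 0.05 from limma, and 14 had an unadjusted p under 0.05, as had 4130 of the 23753 probes flagged on all arrays and 5572 of all 39429. Among probes flagged on all arrays 0.552% were lower and 0.223% higher, and among all probes 0.386% and 0.228%. Beside Olfr1415, the largest falls were those of Olfr1509 and Olfr1341, and the largest rises after Olfr521 were those of Olfr745 and Olfr1386. Olfr1509, a class II receptor known to respond to a sulfur compound of male urine, gave 5.004, 5.51, 5.72, and 6.10 in CD, 6.29, 5.31, 4.995, and 5.26 in PR, and 4.99, 4.16, 4.59, and 5.10 in FA, with overlapping groups and a difference of -0.76 (SE 0.32, adjusted p = 0.33). Olfr1341 differed by -0.67 (adjusted p = 0.11), Olfr745 by 0.54 (adjusted p = 0.30), and Olfr1386 by 0.44 (adjusted p = 0.33).

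The 114 members that were not flagged in every group were dimmer, and because the flag in a group chose them, their differences are given without a test. The 73 probes of the PR and FA pattern had a median of mean log2 levels of 4.70 in CD, 5.25 in PR, and 5.22 in FA. The 34 probes of the PR pattern had 4.18, 4.63, and 4.22, and the 7 of the FA pattern 3.18, 4.09, and 4.43. Of the 114, 14 had a mean in CD at or above that in PR, and 24 at or above that in FA.

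Where a member was flagged on 0 CD arrays, the CD mean was set at the dimmest flagged signal of each array or the probe's own, whichever was higher, to give a lower bound. A bound above 1-fold existed for 25 of the 69 such probes in PR, and 1 of them was at least 2-fold. This was Olfr1173 (chr2:88114539-88114598), with 4.33, 4.51, 5.17, and 4.69 in CD, 6.50, 7.87, 6.65, and 6.06 in PR, and 6.32, 5.10, 5.88, and 5.17 in FA. Its PR values lay above all CD values, while its FA values overlapped with them. The bound on the difference of means from CD was 3.36-fold for PR and 1.51-fold for FA. Such bounds leave out the spread between mice. The flag that chose these probes also favors higher values in PR and FA, so that the bounds test nothing. In FA, 24 of 68 probes had a bound above 1-fold, the highest being 1.89-fold for Olfr559. That probe gave 7.13, 5.74, 5.85, and 5.03 on the FA arrays, against 4.46 to 4.85 in CD, so that FA replicate 1 raised its mean. Olfr460, of the PR pattern, had its highest value in CD, where replicate 2 gave 7.98 and the other arrays 3.12 to 3.95, and it was flagged on that CD array and on 0 FA arrays.

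Olfr209 and Olfr738 were, with Olfr1173, the brightest of the PR and FA pattern. Olfr209 had means of 5.64 ± 0.10 in CD, 6.35 ± 0.12 in PR, and 6.22 ± 0.38 in FA, with the flag on 3 CD arrays, and Olfr738 had 5.93 ± 0.37, 6.51 ± 0.08, and 6.01 ± 0.14, likewise with 3. The brightest of the PR pattern were Olfr455, Olfr1348, and Olfr94. Olfr455 gave 5.29, 8.12, 4.16, and 4.92 in PR, so that replicate 2 made its PR mean, against 4.10 to 5.11 in CD and 3.84 to 4.70 in FA. Olfr1348 had 4.80 ± 0.32 in CD, 5.60 ± 0.09 in PR, and 5.29 ± 0.42 in FA, and Olfr94 had 4.86 ± 0.36, 5.35 ± 0.29, and 4.44 ± 0.42.

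Olfr1221 (chr2:88952020-88952079) had the brightest FA signal of the FA pattern. It gave 2.55, 2.55, 2.56, and 2.56 in CD, 3.97, 3.84, 4.29, and 4.24 in PR, and 4.66, 4.50, 4.81, and 4.96 in FA, with the flag on 0, 3, and 4 arrays. The CD values carried no flag and do not measure a level above background. High values in FA were a condition for choosing this probe. Its FA mean lay below the dimmest flagged signal of the CD arrays, so that no bound could be given against CD. Olfr611 and Olfr438 had FA means of 4.57 and 4.56, with 4.47 and 3.12 in CD, and the CD mean of Olfr611 rested on replicate 1, at 5.72 against 4.00 to 4.15 on the others.

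Olfr656 (chr7:111767031-111767090), a class I receptor, was chosen through the PR group although it was highest in CD. It gave 5.59, 5.21, 5.29, and 4.88 in CD, 4.93, 4.41, 4.86, and 4.80 in PR, and 4.07, 3.76, 3.69, and 4.20 in FA, with the flag on 2, 4, and 2 arrays. The FA values lay below all others, and those of CD and PR overlapped. Olfr630, in the same cluster, was not a member by either of its probes. The brighter of these gave 8.17, 3.94, 4.34, and 6.70 in CD and 2.11 to 3.22 in PR and FA, with the flag on 2 CD arrays, and the other gave 2.23 to 2.96 on all 12 arrays.

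Just outside the choice lay 29 receptor probes with the flag on 3 arrays of a group at most, and the brightest were Olfr266, Olfr617, and Olfr477. Olfr266 had means of 4.57 ± 0.37 in CD, 4.77 ± 1.03 in PR, and 3.93 ± 0.30 in FA, with the flag on 3 PR arrays. Olfr617 had 3.95 ± 1.03, 4.91 ± 1.48, and 4.22 ± 0.53, and Olfr477 had 3.54 ± 0.31, 4.62 ± 0.58, and 4.51 ± 0.56. The dimmest members were of the same order, with group means from 2.24 in CD, 3.90 in PR, and 3.44 in FA. A further 72 receptor probes had the flag on at most 2 arrays of a group and 245 on at most 1.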

How the data were processed

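Whole-brain RNA of 12 male mice, 4 per maternal diet, was hybridized to 1 one-colour Agilent array each. The authors scanned the arrays and extracted spot intensities with Agilent Feature Extraction 11.0.1.1 per the labels, with probe positions in mm9, and deposited a table of qspline-normalized intensities on the linear scale, 1 per probe. The log2 of these deposited intensities was used throughout, and the flag for spots well above background came from the scanner files. No columns of the table were left without a sample. Methylation arrays of the same study were not used here.

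The members and the gene lists were chosen with earlier results of these data known. A single limma model (limma 3.58.1, R 4.3.3) covered the 3 diets, with two-sided tests and p-values adjusted by the method of Benjamini and Hochberg across the 39429 probes, and adjusted p-values are given only for the 49 receptor probes flagged on all 12 arrays and for listed genes. Labels do not say whether the mice of a group shared a litter, and p-values measure only the spread between them. The number of arrays limits the precision. On simulated arrays for PR minus CD with 200 changed probes of 39429, 96% were recovered at a log2 change of 1 and 100% at 2, with 9 false calls. The changed probes were drawn from those flagged on all 12 arrays, with independent normal noise and no slide effect. In the data each diet has its own slide and far more probes were called, so that these figures are not error rates of the tests here.

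Named receptors were the 10 brightest of the 49, the 3 largest rises and falls of each comparison among them, the 3 brightest of each other detection pattern, the 3 brightest just outside the rule, genes with more than 1 member probe, and Olfr630, Olfr656, and Olfr1221, which earlier results had named. Of the listed genes, up to 5 per list were eligible by level, with Omp, Cnga2, and Gng8. Other receptors and genes were named after their values were seen. Gene names are those of the files. Of the 163 members, 162 were found in RefSeq's GRCm38 table, 3 under another symbol, and 109 lay in a gene model of coding length. Tables were made with Python 3.11.15, pandas 2.3.3, and numpy 2.4.6.

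Alternatives were other flags and spot rules, scaling to the 75th percentile, quantile normalization, normexp correction of the background (offset 50), a block on replicate number, robust estimation with a variance trend, a fit of the 2 compared diets alone, removal of dim probes, the Tukey test and the limits of the methods (2-fold at an adjusted p under 0.0001), and leaving out each array.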

Additional observations from a re-analysis of the deposited data

Results flagged for a closer look

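Among the 40 named receptor probes, 14 of 120 groups of 4 arrays held an array that stood apart from the other 3 beyond Dixon's critical value. Chance gives this in about 1 of 20 independent groups. The probes were named by their levels and differences and share arrays, so that the count cannot be compared with that rate. Of the 14, 4 were on the array of CD replicate 4. It was low for Olfr173 (11.41 against 12.01 to 12.03) and high for Olfr1229 (9.38 against 8.75 to 8.81), Olfr1252 (7.96 against 7.39 to 7.47), and Olfr549 (7.62 against 6.997 to 7.02). CD replicate 1 was low for Olfr95 (5.01 against 5.99 to 6.10) and high for Olfr611 (5.72 against 4.00 to 4.15). Olfr1466 stood high on PR replicate 4 (10.80 against 7.87 to 8.24) and on FA replicate 4 (10.54 against 8.03 to 8.43). In the PR group, Olfr288 was high on replicate 1 (7.10 against 5.84 to 6.04), Olfr617 on replicate 2 (7.10 against 3.93 to 4.31), and the dimmer probe of Olfr630 on replicate 4 (2.60 against 2.23 to 2.25). In the FA group, Olfr373 was high on replicate 1 (9.87 against 9.47 to 9.53), the dimmer probe of Olfr630 on replicate 2 (2.96 against 2.24 to 2.28), and Olfr456 on replicate 3 (6.40 against 5.72 to 5.76).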

How the results depend on the processing

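The number of chosen receptor probes was 163 and rose to 463 with the flag for a positive and significant signal, and the number flagged on all 12 arrays rose from 49 to 152. With each array left out these numbers were 163 to 172 and 49 to 56.

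Of the 163 members, 114 were chosen through PR or FA without CD, which by itself favors higher values against CD, so that the counts of calls and medians over the 163 are given to show how they move with the processing and support nothing. In PR minus CD, the 6 lower probes became 2 by the Tukey test and 0 at the limits of the methods, and 4 to 7 with each array left out. The 48 higher probes became 78 with scaling to the 75th percentile, 23 by the Tukey test, 1 at the limits of the methods, and 9 over the members flagged on all arrays, and 37 to 62 with each array left out. In FA minus CD, the 11 lower probes became 6 with only these 2 groups, 5 by the Tukey test, 0 at the limits of the methods, and 7 without CD replicate 4, with a range of 7 to 10 over the arrays left out. The 40 higher probes became 24, 2, and 8 by the Tukey test, at the limits of the methods, and over the members flagged on all arrays, and 31 to 52 with each array left out. In FA minus PR, the 2 lower probes became 1 with quantile normalization, with only these groups, and over the members flagged on all arrays, and 0 with normexp, the replicate block, the Tukey test, and the limits of the methods, and 0 to 1 with each array left out, where FA replicate 3 gave 0 and every other PR or FA array 1. The 1 higher probe became 0 with scaling to the 75th percentile, normexp, the replicate block, the variance model with trend, the Tukey test, the limits of the methods, over the members flagged on all arrays, and with any PR or FA array left out.

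The median log2 difference of the 163 members was 0.41 in PR minus CD and became 0.67 with scaling to the 75th percentile, 0.11 with normexp, and 0.057 over the members flagged on all arrays, with 0.36 to 0.50 over the arrays left out. In FA minus CD it was 0.29 and became 0.091 with normexp and -0.12 over the members flagged on all arrays, with 0.25 to 0.38 over the arrays left out. In FA minus PR it was -0.13 and -0.20 to -0.09 over the arrays left out.

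Without CD replicate 4 the difference of Olfr1229 in PR minus CD was 0.01 in place of -0.14, and that of Olfr522 in FA minus CD was 0.02 in place of -0.12; over the arrays left out they ran from -0.20 to 0.01 and from -0.19 to 0.02. Over the 16 alternatives the differences ran from 0.24 to 0.83 for Olfr74 and from 0.24 to 0.81 for Olfr1251 in PR minus CD, and from -1.09 to -0.50 for Olfr1415 and from 0.31 to 0.87 for Olfr521 in FA minus CD, with every one of these calls kept apart from that of Olfr1251 by the Tukey test (adjusted p = 0.056).

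Deviations of mice with the same replicate number showed low correlations (-0.06 to 0.20). These do not settle whether the number pairs mice, since mice can share a litter or a slide position without a common deviation over many probes. The labels do not say either, and pairing was not tested further. With the replicate number as a block, the calls between FA and PR went from 152 lower and 90 higher probes to 6 and 5, and Olfr1466 passed the threshold (adjusted p = 0.0064 in PR and 0.0077 in FA, against CD).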
